A study of Homo sapiens with 8 samples.

Results

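Mitochondrial ribosomal protein genes were taken as all genes whose symbol begins with MRPL or MRPS followed by a digit. Of 19286 genes listed in the count tables, 77 carried such a symbol, and 76 of them held at least 10 counts in at least 2 libraries. The 76 genes comprised 49 MRPL genes, named for the large subunit, and 27 MRPS genes, named for the small subunit. The gene left out, MRPS18B, held 0 or 1 count in every library. Of the 10 genes nearest to MRPS18B, 5 on either side in the RefSeq gene order, 9 likewise held at most 2 counts in any library and DHX16 reached 62, so the level of MRPS18B was not described. KGD4, earlier named MRPS36, was not matched by the symbol.

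The mitochondrial ribosome translates the few messages of the mitochondrial genome, nearly all of which encode subunits of the respiratory chain. Its RNAs come from mitochondrial DNA, but all of its proteins are encoded in the nucleus, made on cytosolic ribosomes and imported. Some of these proteins descend from bacterial ribosomal proteins, and others were added during the evolution of mitochondria. The genes are expressed in all tissues, and defects in many of them cause disorders of oxidative phosphorylation.

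Polyadenylated RNA was sequenced in 8 libraries, 2 in each of 4 groups. HEK293T, a transformed line from human embryonic kidney, was exposed to sodium arsenite, a compound that causes oxidative stress, and carried either control siRNA or siRNA against eIF2A, a protein that can deliver initiator tRNA to ribosomes. The embryonic stem cell line H9, also human, expressed either a control shRNA or one against eIF2A, and its labels name no arsenite. All HEK293T libraries were from arsenite-treated cells, each line is a single established line, and whether the 2 sets in a group were separate cultures is not stated, so p-values measure the spread between these libraries only.

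The libraries held 21837052 to 32318668 counts on genes. Abundance of EIF2A, the gene targeted, was 17.5 and 18.3 CPM (counts scaled to the library size) in the HEK293T controls against 5.58 and 5.98 with siRNA, and 15.8 and 14.8 CPM in the H9 controls against 5.03 and 4.67 with shRNA. Its log2 fold change was -1.63 ± 0.09 (SE) in HEK293T and -1.66 ± 0.11 in H9, with 2 libraries a group throughout. The summed abundance of 7 pluripotency genes was 5313 and 5350 CPM in the H9 controls and 4914 and 4981 CPM with eIF2A shRNA. In HEK293T it was 137 to 151 CPM. In H9, 3 neural genes summed to 349 and 366 CPM in the controls and to 167 and 169 CPM with eIF2A shRNA, and 5 fibroblast genes, 2 of them under 1 CPM in every library, summed to 973 and 980 against 842 and 856 CPM. In H9, 4 trophoblast genes, 1 of them under 1 CPM in every library, summed to 25.6 and 26.2 against 16.7 and 16.1 CPM. There, 6 genes of mesoderm and endoderm, 2 of them under 1 CPM in every library, summed to 9.09 and 9.83 against 6.88 and 6.32 CPM. Such sums do not show which genes carry them and were not read as the presence of a cell type. The share of reads outside annotated exons was 18.8% and 18.4% in the H9 controls and 20.8% and 20.6% with shRNA. The part of these shifts in the values below was not tested.

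Promoter windows, from 250 bases before to 50 bases after the start of a transcript, were available from RefSeq (GRCh38.p14) for 68 of the 76 genes. The letters AAGATGGC, the core recognised by the factor YY1, were searched on both strands and were held by 20 of the 68 genes (29.4%), compared with 5.86% of all 11731 tested genes with a window. They lay after the start in 15 of 23 matches, at a median of 10 bases from it. Matches were counted in each of the 84 windows of these genes. A site near alternative starts thus counts more than once, as in MRPL47 and MRPS12. The sites of genes that recur in the comparisons are shown, picked from those that lie after the start, here by 10 to 22 bases on the coding strand. Of other genes that recur, MRPS12, MRPL47 and MRPL52 hold the letters before the start, at positions from -222 to -64. Each line gives 30 bases, 5′ to 3′ on the strand of the gene, with the matched letters in capitals.
MRPS10: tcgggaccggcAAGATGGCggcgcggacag
MRPS18A: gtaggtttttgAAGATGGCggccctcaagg
MRPL20: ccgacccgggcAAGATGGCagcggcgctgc
MRPS27: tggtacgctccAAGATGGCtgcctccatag
MRPS24: ccgcttggcccAAGATGGCggcctccgtgt
MRPL51: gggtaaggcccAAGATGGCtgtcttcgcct

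These stretches lie on the minus strand at chr6:42217834-42217863 (MRPS10), chr6:43687764-43687793 (MRPS18A), chr1:1407260-1407289 (MRPL20), chr5:72320206-72320235 (MRPS27), chr7:43869480-43869509 (MRPS24) and chr12:6493223-6493252 (MRPL51). The matched letters lie in each case just inside the transcribed part of the gene. The letters CCGGAAG, the core of ETS factors such as GABPA, were held on either strand by 30 of the 68 genes (44.1%) against 20.4% of all tested genes. They lay before the start in 39 of 45 matches, at a median position of -26. Matches were again counted per window, and sites of MRPL47, MRPS12 and MRPS22 count more than once. The ETS sites of MRPS10, MRPL27, MRPS31 and MRPS34 are shown for comparison. The first 3 lie in the orientation of the gene and the last on the opposite strand.
MRPS10: ccgctgtaaccCCGGAAGcaatcctgagag
MRPL27: acttttcgagaCCGGAAGtgagtgatcgaa
MRPS31: aaggcgccaggCCGGAAGcggaagagaggg
MRPS34: cctcttcctcgCTTCCGGccgcgaccgaac

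The stretches lie at chr6:42217865-42217894 (MRPS10), chr17:50373174-50373203 (MRPL27), chr13:40771204-40771233 (MRPS31) and chr16:1773187-1773216 (MRPS34), all on the minus strand. The half-site GCGCATG of NRF1, the factor for which nuclear genes of the respiratory chain are best known, was held on either strand by 6 of the 68 genes (8.82%), close to the 8.18% of all tested genes. A match describes letters only and shows no binding. The neighbouring genes MRPL46, of the large subunit, and MRPS11, of the small subunit, start 320 bp apart on opposite strands.

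Abundance differed widely among the 76 genes. Mean CPM over the 8 libraries ranged from 9.67 to 709, with a median of 92.9. Per kilobase of the matched transcript, MRPL12, a protein of the stalk that binds translation factors, was the most abundant at 458 CPM per kb over the 8 libraries, followed by MRPL37 at 448 and MRPL20 at 358. The order differed by line: MRPL37 led in both HEK293T groups (672 CPM per kb in the controls, against 283 in the H9 controls) and MRPL20 in both H9 groups (412 in the controls, against 361 in the HEK293T controls). MRPL42, MRPL50 and MRPL1 were lowest, at 1.96, 5.54 and 6.49 CPM per kb. The value of MRPL42 rests on a matched transcript of 15582 nt, far above the median of 1370 nt for these genes. The lowest count of any of the 76 genes in any library was 139.

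Mitochondrial ribosomal protein genes together took a larger share of the counts in HEK293T than in H9. In the HEK293T libraries they held 1.06% and 1.08% of gene counts with control siRNA and 1.10% and 1.09% with eIF2A siRNA. In H9 they held 0.755% and 0.752% with control shRNA and 0.659% in both libraries with eIF2A shRNA. The ranges of the 2 H9 groups did not overlap, and the H9 control libraries lay below every HEK293T library. MRPL genes held 0.499% and 0.495% of counts in the H9 controls and 0.433% and 0.434% with shRNA. MRPS genes held 0.256% in both H9 controls and 0.226% and 0.225% with shRNA, so both subunits took a smaller share. No test was made of these shares.

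**Figure D1:**
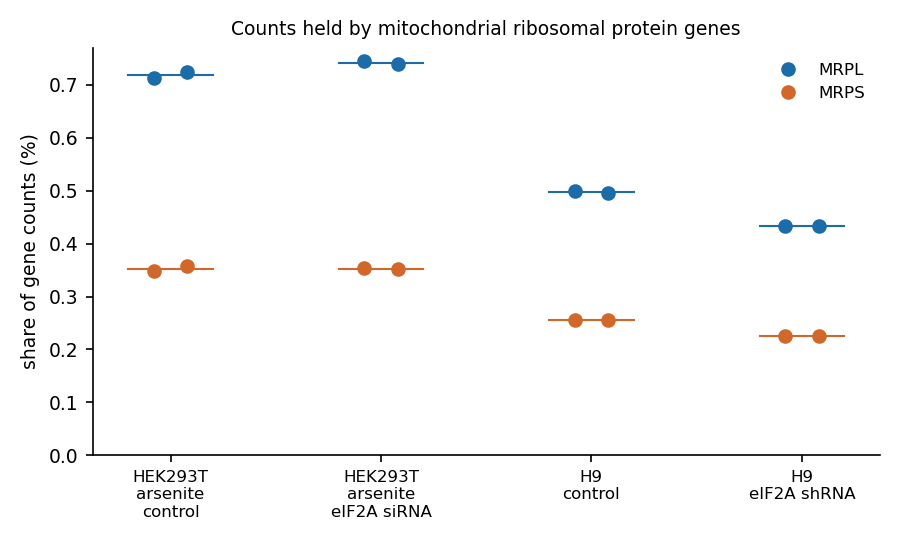
Share of gene counts (%) held by MRPL genes (blue) and MRPS genes (orange) in each of the 8 libraries, by group; points are libraries and short lines the means of 2. MRPL shares lie between 0.713% and 0.744% in HEK293T, at 0.495% and 0.499% in the H9 controls and at 0.433% and 0.434% with eIF2A shRNA.

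To assess the response of HEK293T cells under arsenite, eIF2A siRNA was compared with control siRNA. Most mitochondrial ribosomal protein genes moved little. By edgeR's quasi-likelihood test at an adjusted p under 0.05, 24 of 76 rose, 7 fell and 45 did not pass. Over all 14559 genes tested, 14.1% rose and 14.7% fell. The median log2 fold change was 0.06 for the 76 genes and -0.00 for all genes, and no member changed 2-fold, as 0.350% of all genes did upward and 0.323% downward. Of the 49 MRPL genes 15 rose and 2 fell (median 0.08), and of the 27 MRPS genes 9 rose and 5 fell (median 0.01). With the trend of fold changes on GC content and length removed, 21 members rose and 13 fell, against 14.5% and 12.9% of all genes.

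The largest rise was that of MRPS33, a small-subunit protein with no bacterial counterpart. Its abundance was 41.9 and 40.7 CPM in the controls and 61.4 and 58.5 CPM with siRNA, a log2 fold change of 0.54 ± 0.05 (edgeR adjusted p = 3.81e-10). Both knockdown libraries lay above both controls, as they did for the genes that follow. MRPL13, a large-subunit protein with a bacterial counterpart, stood at 35.9 and 34.4 CPM against 49.6 and 48.6 CPM (0.49 ± 0.05). MRPS10, a protein of the head of the small subunit, stood at 23.2 and 22.8 CPM against 32.1 and 31.2 CPM (0.46 ± 0.06). These 3 genes, from both subunits, rose by 1.38- to 1.45-fold. MRPL51 rose from 83.3 and 86.7 to 112 and 114 CPM (0.41 ± 0.04), and MRPL15 from 83.8 and 86.0 to 112 CPM in both libraries (0.40 ± 0.04). MRPS18C, one of the mitochondrial forms of bacterial protein S18, rose from 31.1 and 36.1 to 46.7 and 41.7 CPM (0.38 ± 0.06), with the widest spread of the 6. KGD4, outside the symbol rule, had a log2 fold change of 0.50 ± 0.08 in the same comparison.

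Of the 7 genes that fell, 5 were small-subunit genes. MRPS34, which stabilises the small subunit, fell from 420 and 464 CPM to 367 and 361 CPM, a log2 fold change of -0.28 ± 0.04 (edgeR adjusted p = 1.64e-07). MRPS6 fell from 98.2 and 104 to 85.4 and 82.7 CPM (-0.27 ± 0.04), and MRPS27, a pentatricopeptide repeat protein that binds RNA, fell from 204 and 223 to 176 and 180 CPM (-0.27 ± 0.04). The falls of the other named genes were smaller and rested on single libraries. MRPS5 fell from 100 and 115 CPM to 99.5 and 94.1 CPM (-0.16 ± 0.05, adjusted p = 0.0191), but its adjusted p was 0.481 without control set 2, with a log2 fold change of -0.05, and 0.224 without siRNA set 2. MRPS25, from 101 and 105 to 95.0 and 92.1 CPM (-0.14 ± 0.05), and MRPL34, from 104 and 110 to 100 and 96.9 CPM (-0.12 ± 0.04), also failed the test without control set 2 (adjusted p of 0.106 and 0.252), without siRNA set 1 (0.0564 and 0.0543) and without siRNA set 2 (0.183 and 0.215). The 2 HEK293T controls differed more from each other than the libraries of any other group, with a chi-square per degree of freedom of 4.91 over genes against 1.35 to 1.80. Without control set 1 the fallers numbered 11, and without siRNA set 2 they numbered 3.

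**Figure D2:**
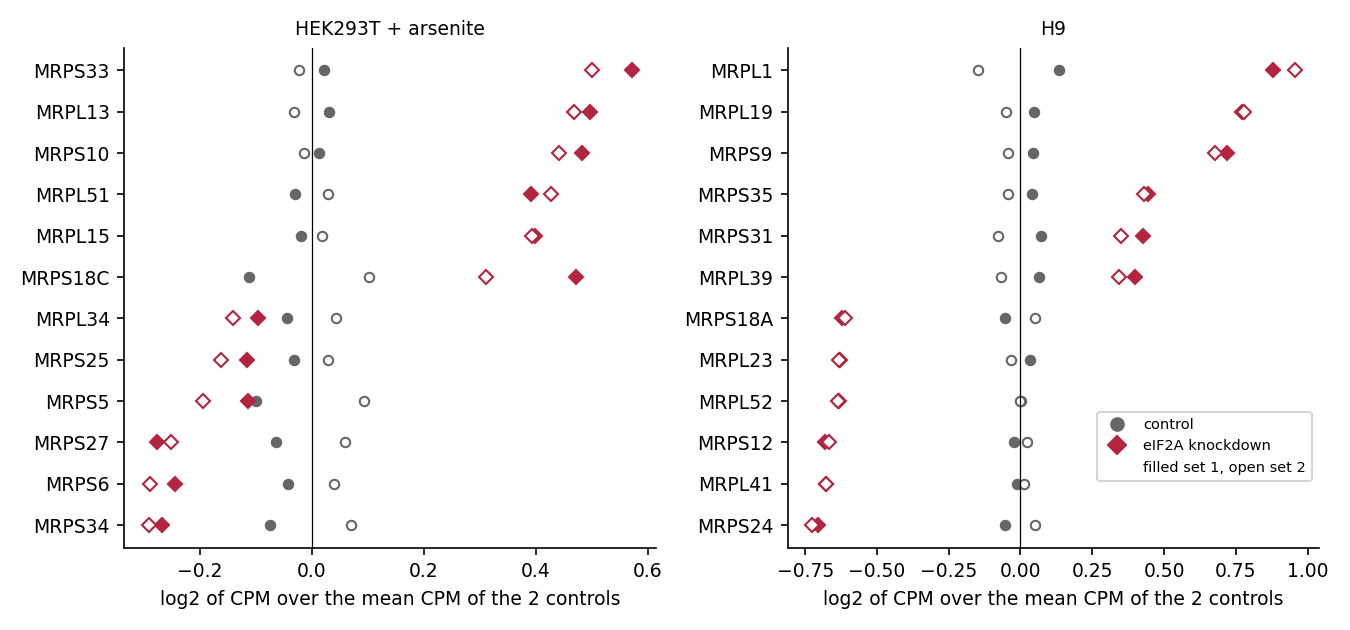
Per-library values of the 6 steepest risers and the 6 steepest fallers among the members in HEK293T (left) and H9 (right), as log2 of CPM over the mean CPM of the 2 controls; grey circles are controls, red diamonds eIF2A knockdown, filled symbols set 1 and open symbols set 2. In H9 the 2 knockdown libraries nearly coincide for each gene, whereas for MRPS5 in HEK293T a control lies close to the knockdown libraries.

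To assess the response of H9 cells, libraries with eIF2A shRNA were set against those with control shRNA. Here mitochondrial ribosomal protein genes of both subunits were mostly lower. Of the 76 genes 59 fell, 7 rose and 10 did not pass the edgeR test, while of all genes tested 34.3% fell and 37.0% rose. The median log2 fold change was -0.37 against 0.02 for all genes, and 64 of 76 lay below the median of all genes. Each change was modest: no member moved 2-fold, although 15.9% of all genes rose and 0.900% fell at least that far. The members also varied less among themselves than genes at large, with an interquartile range of 0.37 log2 units against 1.07. With the trend on GC content and length removed, the ranges were close, at 0.48 and 0.52. With a trend in which the effect of GC content varied with length, they were 0.35 and 0.50.

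In H9, fold changes moved with base composition across the whole transcriptome. Log2 fold changes fell with the GC content of the matched transcript. Spearman's rho was -0.68 over the 14483 genes tested with a known GC content, members included, and -0.77 over the 76 members. In HEK293T rho was -0.10 and -0.44. These correlations are across genes of the same libraries and are a description only. Members below 45% GC (22 genes) had a median of -0.03 where all genes of that class had 0.85, and 6 rose and 9 fell. Members from 45% to 55% GC (33 genes) had a median of -0.38 against 0.05, with 1 riser and 29 fallers. Members of 55% GC or more (21 genes) had a median of -0.58 against -0.36, and all 21 fell. Over all classes 34.3% of genes tested fell and 37.0% rose. The shares of all genes called within each class were not worked out, so the counts by class have no baseline. In H9, 73 of 76 members lay below the median of all genes of their own GC class, and in HEK293T 21 did. These classes match GC content but not length. The matched transcripts of the members had a median of 1370 nt, against 3032 nt for all genes tested. Log2 fold changes in H9 rose with length, with rho of 0.45 over all genes and 0.45 over the members. With the trend on GC content and length removed, 54 of 76 members lay below the median of all genes.

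**Figure D3:**
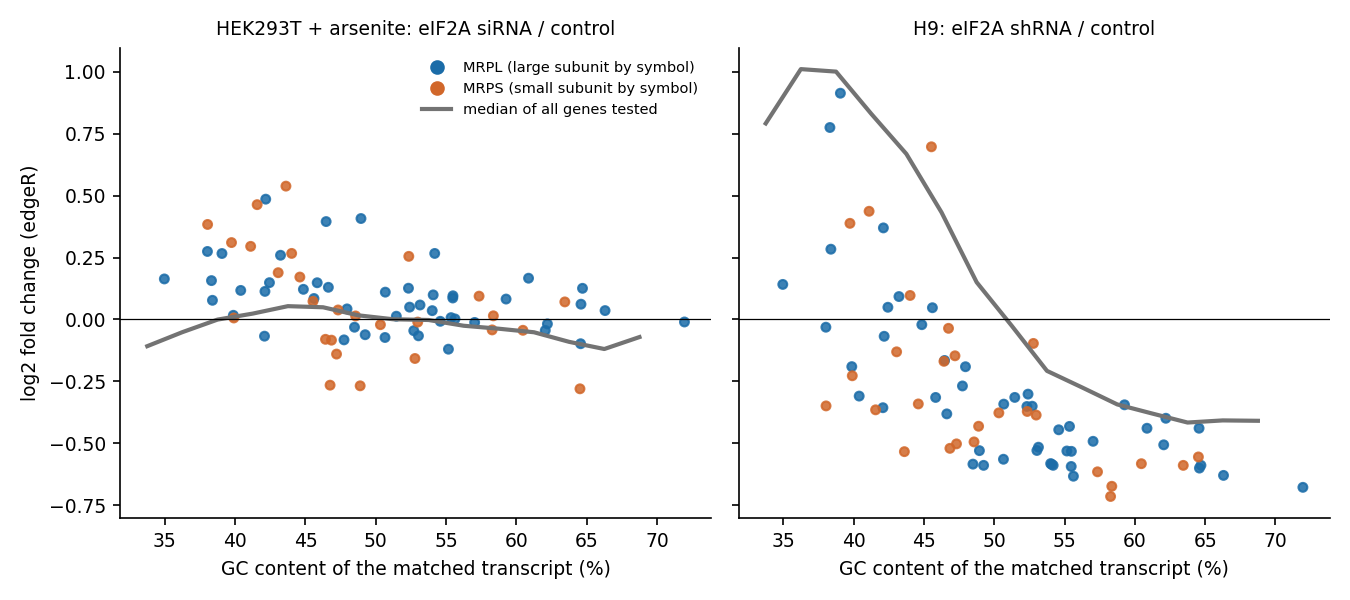
Log2 fold change of each mitochondrial ribosomal protein gene (MRPL blue, MRPS orange) against the GC content of its transcript (%) in HEK293T (left) and H9 (right); the grey line is the median of all genes tested in steps of GC content. In H9 the grey line descends with GC content and 73 of 76 genes lie below the median of their GC class.

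Removing a smooth trend on GC content and on length from the counts left a smaller change in the same direction. With that trend removed, 40 members fell and 8 rose, against 26.1% and 23.4% of all genes, and the median was -0.12. With a trend that let the effect of GC content vary with length, an alternative added after the data were seen, 43 fell and 5 rose, against 25.3% and 22.3% of all genes, and the median was -0.15. The corrections changed which members were low. Members below 45% GC had a median of -0.51 and those of 55% or more a median of 0.04 after the first correction, and rho over the members turned to 0.66 and to 0.31 after the second. Of the 66 members called in H9, 32 kept their call and direction under the first correction and 39 under the second.

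**Figure D4:**
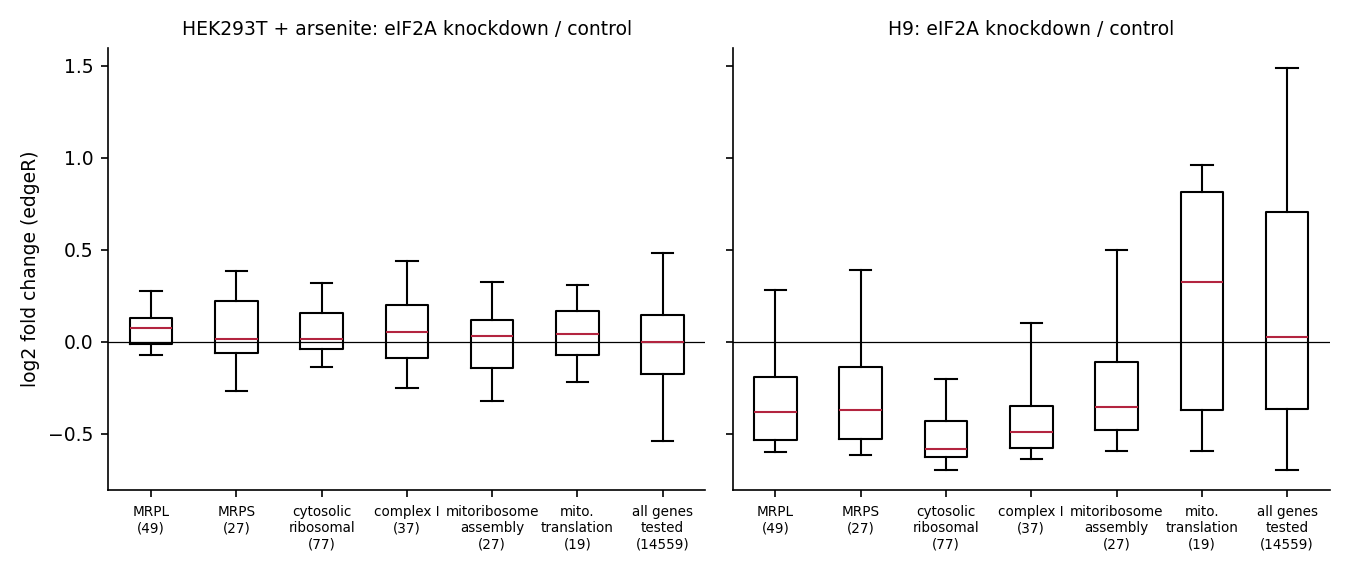
Distribution of log2 fold changes for MRPL and MRPS genes, cytosolic ribosomal protein genes, complex I subunit genes, mitoribosome assembly factors, mitochondrial translation factors and all genes tested, in HEK293T (left) and H9 (right); boxes span the quartiles, red lines are medians and whiskers leave out 5% of genes at either end. In H9 the medians were -0.38 for MRPL and -0.37 for MRPS genes against 0.02 for all genes.

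Counts and medians were similar for MRPL and MRPS genes in H9. Of 49 MRPL genes 38 fell and 4 rose, with a median of -0.38, and of 27 MRPS genes 21 fell and 3 rose, with a median of -0.37. With the GC and length trend removed the medians were -0.09 and -0.17. Genes for proteins with a bacterial counterpart (46 genes, 37 lower, 3 higher, median -0.38) and genes for proteins particular to mitochondria by name (30 genes, 22 lower, 4 higher, median -0.35) gave nearly the same values. The counts by structure that follow stand beside falls in 59 of all 76 members and in 34.3% of all genes tested. They cover listed genes only, not every protein of a structure. Within the large subunit, all 5 genes listed for the factor-binding stalk fell (MRPL10, MRPL11, MRPL12, MRPL53 and MRPL54, median -0.53). So did all 4 listed for the central protuberance (MRPL38, MRPL40, MRPL46 and MRPL48, median -0.33). Around the exit of the peptide tunnel 5 of 6 listed genes fell, with MRPL47 the exception (-0.03 ± 0.06). With the trend removed these groups split: among stalk genes MRPL10 was lower and MRPL54 (0.32) higher, with a median of 0.01, and among protuberance genes MRPL48 was lower and MRPL40 (0.20) higher, with a median of 0.07. Around the tunnel exit MRPL17, MRPL22, MRPL45 and MRPL47 were then lower and MRPL23 (0.09) higher.

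The steepest falls in H9 were between 1.53- and 1.64-fold. MRPS24, a protein at the entry of the messenger RNA channel, fell from 22.3 and 24.0 CPM to 14.2 and 14.0 CPM, a log2 fold change of -0.72 ± 0.08 (edgeR adjusted p = 2.65e-10). MRPL41 stood at 82.4 and 84.0 against 52.0 CPM in both knockdown libraries (-0.68 ± 0.05). MRPS12, a protein of the decoding centre, stood at 138 and 142 against 87.5 and 88.4 CPM (-0.67 ± 0.04). For each of these genes both knockdown libraries lay well below both controls. MRPL52 fell from 141 CPM in both controls to 91.1 and 91.0 CPM (-0.63 ± 0.04), and MRPL23, a protein at the tunnel exit, from 134 and 128 to 84.6 and 84.4 CPM (-0.63 ± 0.04). MRPS18A, a further S18 form that sits in the large subunit despite its name, fell from 135 and 145 to 90.8 and 91.4 CPM (-0.62 ± 0.04). The 6 transcripts are GC-rich, and after removal of the GC and length trend their log2 fold changes were -0.02 for MRPS24, -0.14 for MRPL41, -0.11 for MRPS12, 0.04 for MRPL52, 0.09 for MRPL23 and -0.03 for MRPS18A. With the trend that varied with length they were -0.21, -0.21, -0.21, -0.18, -0.07 and -0.15.

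In H9 7 genes rose. MRPL1, a protein of the mobile stalk beside the tRNA exit site, rose from 8.35 and 6.86 CPM to 14.0 and 14.8 CPM, a log2 fold change of 0.91 ± 0.11 (edgeR adjusted p = 2.11e-09). MRPL19 stood at 24.0 and 22.5 against 39.7 and 39.9 CPM (0.78 ± 0.06), and MRPS9, a protein of the head of the small subunit, at 22.1 and 20.7 against 35.2 and 34.2 CPM (0.70 ± 0.07). These 3 genes were at least 1.62-fold higher, and for each the knockdown libraries lay above both controls. MRPS35 (0.44 ± 0.06), MRPS31 (0.39 ± 0.09), MRPL39 (0.37 ± 0.08) and MRPL42 (0.28 ± 0.06) rose less. With the GC and length trend removed MRPL1 (0.37) and MRPS9 (0.48) remained higher. MRPL19 (-0.03), MRPS35 (-0.13), MRPS31 (-0.14) and MRPL39 (-0.03) then turned to values below 0, and MRPL42 stood at -0.89. The value of MRPL42 rests on its matched transcript of 15582 nt, since the trend uses that length. With the trend that varied with length MRPL1 (0.56), MRPS9 (0.57) and MRPL39 (0.19) were higher.

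Humans have 3 mitochondrial forms of the bacterial S18 protein, encoded by separate genes. MRPS18C, a form in the small subunit, rose in HEK293T and fell in H9, from 29.2 and 28.9 to 23.3 and 22.4 CPM (-0.35 ± 0.08, edgeR adjusted p = 0.00012). MRPS18A had a log2 fold change of 0.09 ± 0.04 in HEK293T, which did not pass (edgeR adjusted p = 0.0803), and fell in H9 as given above. In HEK293T the call of MRPS18A depended on 1 library, with a log2 fold change of 0.15 and an edgeR adjusted p of 0.00312 without control set 2. MRPS18B could not be compared, since it held no more than 1 count in a library.

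The responses of the lines were then compared directly, as the H9 change minus the HEK293T change. The difference was negative for 61 genes, positive for 6 and did not pass for 9, while 27.0% of all genes were called negative and 31.1% positive. MRPS33 was the only member with a difference of at least 2-fold, and it was negative, as for 1.48% of all genes, while 14.6% of all genes had a positive difference of that size. The median difference was -0.44 against 0.05 for all genes, with 42 of 49 MRPL genes (median -0.45) and 19 of 27 MRPS genes (median -0.38) negative. With the GC and length trend removed 40 were negative and 6 positive, against 22.8% and 19.7% of all genes. Arsenite, the knockdown method and the line differ together between these experiments and cannot be told apart.

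A set of 15 genes (19.7% of the 76) rose in HEK293T and fell in H9, as did 5.81% of all genes tested, and the largest negative differences came from such genes. MRPS33 rose in HEK293T as given above and fell in H9 from 35.9 and 34.4 to 24.7 and 23.8 CPM, a difference of -1.07 ± 0.08 (edgeR adjusted p = 2.1e-13). MRPL51 fell in H9 from 166 and 159 CPM to 111 and 114 CPM (difference -0.94 ± 0.06). MRPL27 rose in HEK293T from 70.0 and 70.4 to 84.0 and 84.9 CPM and fell in H9 from 95.4 and 95.0 to 64.0 and 62.5 CPM (-0.86 ± 0.06). MRPS10 fell in H9 from 27.9 and 28.5 to 22.7 and 21.0 CPM (-0.83 ± 0.09). All 4 differences stayed called after either removal of the GC trend, as given for the later one by values of -0.83 for MRPS33, -0.69 for MRPL51, -0.40 for MRPL27 and -1.22 for MRPS10. KGD4, with 0.50 in HEK293T and -0.34 ± 0.09 in H9, had a difference of -0.84 ± 0.12.

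Positive differences were found for MRPL1 (0.65 ± 0.15), MRPS9 (0.62 ± 0.09), MRPL19 (0.62 ± 0.08) and MRPL39 (0.26 ± 0.11), and for MRPL42 and MRPS27. The difference of MRPL39 (edgeR adjusted p = 0.0489) was lost without either set 2 library of HEK293T, without H9 shRNA set 1 or set 2, and without H9 control set 2, with adjusted p-values from 0.0615 to 0.222. In both lines 5 genes fell, namely MRPL34, MRPL38, MRPS6, MRPS25 and MRPS34, and 3 rose, namely MRPL19, MRPS31 and MRPS35. These are 6.58% and 3.95% of the members, against 8.76% and 5.19% of all genes. With the GC and length trend removed the H9 values of MRPL34 (0.01) and MRPL38 (0.04) did not pass, MRPS34 (0.09) was called higher, and none of the 3 shared risers was higher in H9. Across the 76 genes the 2 sets of fold changes had a Spearman's rho of 0.32, and across all 14559 genes of -0.00, a description over genes that share libraries and, for the members, the dependence on GC content in both lines.

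**Figure D5:**
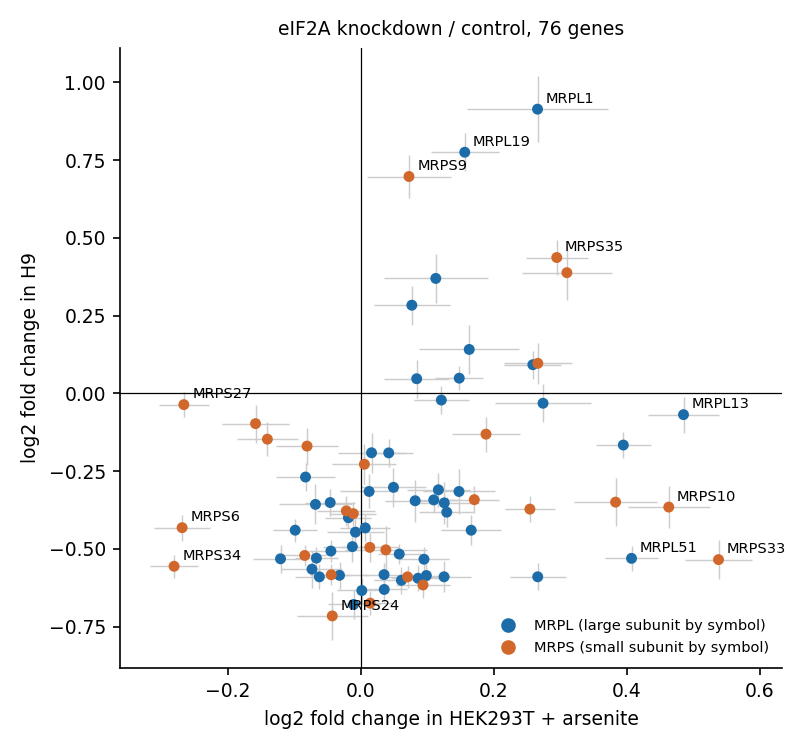
Log2 fold change with eIF2A knockdown in H9 (vertical axis) against that in HEK293T under arsenite (horizontal axis) for 76 mitochondrial ribosomal protein genes, MRPL in blue and MRPS in orange, with bars of 1 SE. Most points lie below 0 on the vertical axis, MRPS33, MRPL51 and MRPS10 lie at the lower right, and MRPL1, MRPL19 and MRPS9 at the top.

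The control libraries of the lines were also compared. Of the 76 genes 52 were lower and 15 higher in H9 than in HEK293T, while 41.2% of all genes were lower and 42.3% higher, and the median log2 ratio was -0.38 against 0.00. Under upper-quartile scaling, which moved the median of all genes in this comparison to -0.15, 58 were lower and 8 higher. Of MRPL genes 31 were lower and 12 higher (median -0.35), and of MRPS genes 21 were lower and 3 higher (median -0.57). All 4 genes listed for the central protuberance (MRPL38, MRPL40, MRPL46 and MRPL48) were lower, with a median of -0.90. The list does not hold every protein of that structure. With the GC and length trend removed 52 were lower and 20 higher, against 43.9% and 40.1% of all genes, close to the counts before removal. Line, arsenite and the use of siRNA or shRNA cannot be told apart here either.

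MRPL40, a protein of the central protuberance whose gene lies in the region deleted in DiGeorge syndrome, measured 82.2 and 90.6 CPM in HEK293T and 30.3 and 32.8 CPM in H9, a log2 ratio of -1.46 ± 0.06 (edgeR adjusted p = 4.56e-23). MRPL37, first by level per length in HEK293T, had a log2 ratio of -1.25 ± 0.03, MRPL18, which accompanies the structural RNA of the central protuberance, -1.16 ± 0.04, and MRPL9 -1.07 ± 0.04. In all 6 members were at least 2-fold lower in H9, as 19.0% of all genes were, a number that became 13 under upper-quartile scaling and 11 once the GC and length trend was removed. In the other direction MRPL47, a protein near the tunnel exit, measured 16.1 and 16.2 CPM in HEK293T and 40.0 and 36.3 CPM in H9 (1.24 ± 0.07), and it was the only member at least 2-fold higher, as 23.5% of all genes were. MRPL51 (0.93 ± 0.04), MRPL57 (0.63 ± 0.04) and MRPS6 (0.58 ± 0.04) followed.

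Other genes of the pathway were examined as lists. Of 27 assembly factors tested, 5 rose and 7 fell in HEK293T and 4 rose and 20 fell in H9, with a median of -0.36 in H9, beside the 14.1% and 14.7% of all genes that rose and fell in HEK293T and the 37.0% and 34.3% in H9. RBFA, which assists maturation of the small subunit RNA, fell in HEK293T (-0.39 ± 0.05), and RPUSD3, a pseudouridine synthase, fell in both lines (-0.25 ± 0.04 in HEK293T and -0.66 ± 0.05 in H9). In H9 DDX28 and MPV17L2, both needed for large-subunit assembly, had log2 fold changes of -0.59 ± 0.05 and -0.61 ± 0.05. After removal of the GC and length trend 13 assembly factors were lower and 1 higher in H9, with a median of -0.12. Of all genes 26.1% were then lower and 23.4% higher.

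Of 19 mitochondrial translation factors tested, 10 rose and 6 fell in H9 (median 0.33), where 37.0% of all genes rose and 34.3% fell. In HEK293T 4 rose and 3 fell, where the shares of all genes were 14.1% and 14.7%. With DESeq2's size factors the H9 counts were 9 and 9, beside 4548 higher and 6123 lower of all 14559 genes. LRPPRC, which stabilises mitochondrial messages, rose in H9 from 32.5 and 27.5 CPM to 87.7 and 82.4 CPM (1.50 ± 0.06, and 0.56 with the trend removed). In HEK293T LRPPRC fell from 26.2 and 24.3 to 20.7 and 19.8 CPM (-0.31 ± 0.07). TUFM, the elongation factor that carries aminoacyl-tRNA, fell in both lines (-0.21 ± 0.03 in HEK293T and -0.54 ± 0.03 in H9), and OXA1L, which inserts new peptides into the inner membrane, fell in H9 (-0.50 ± 0.03). With the trend removed 2 factors were higher and 5 lower in H9, with a median of -0.00. Of all genes 23.4% were then higher and 26.1% lower.

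The 5 ribosomal proteins tested that bear other symbols were DAP3, CHCHD1, AURKAIP1, PTCD3 and GADD45GIP1. In H9, 3 fell and 1 rose, and in HEK293T 2 fell and 1 rose, beside the 34.3% and 37.0% of all genes in H9 and the 14.7% and 14.1% in HEK293T. The HEK293T fall of AURKAIP1 (edgeR adjusted p from 0.0656 to 0.26) failed the test without any 1 of 7 libraries, and that of PTCD3 without control set 2 (0.0536). CHCHD1 fell in H9 from 81.9 and 85.4 CPM to 49.4 and 52.2 CPM (-0.72 ± 0.05), and this fall was nearly as large with the trend removed (-0.70). PTCD3 rose in H9 (0.44 ± 0.06) but had a value of -0.48 with the trend removed. Of the 5 genes of mitochondrial transcription, 2 rose and 1 fell in either line, beside the same shares of all genes. In H9 the counts were 0 and 2 with the trend removed, beside 23.4% and 26.1% of all genes. They were 4 and 1 under upper-quartile scaling, beside 5803 and 4454 of all 14559 genes. With DESeq2's size factors they were 1 and 1, beside 4548 and 6123. The rise of TFB2M in H9 failed the test without shRNA set 1 (edgeR adjusted p = 0.107) or control set 2 (0.0658), and that of TFAM in HEK293T without control set 2 (0.285) or siRNA set 2 (0.125). POLRMT, the mitochondrial RNA polymerase, fell in both (-0.25 ± 0.03 in HEK293T and -0.74 ± 0.03 in H9, or -0.49 in H9 once the trend was taken out), while TFB2M, its initiation factor, rose in HEK293T (0.58 ± 0.11).

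Of 10 regulators of nuclear genes for mitochondrial proteins, 1 rose and 5 fell in HEK293T, where 14.1% of all genes rose and 14.7% fell. In H9 4 rose and 4 fell, counts near the shares of all genes (37.0% and 34.3%). With the trend removed 1 was higher and 2 lower there, against 23.4% and 26.1% of all genes. YY1 itself had a log2 fold change of 0.54 ± 0.05 in H9 and 0.04 with the trend removed. ESRRA fell in H9 (-0.48 ± 0.05), and its value was -0.05 with the trend removed. HCFC1 fell in H9 (-0.26 ± 0.03) and stayed lower with the trend removed (-0.29). In HEK293T HCFC1 rose (0.13 ± 0.03, and 0.29 with the trend removed). MYC fell in HEK293T (-0.21 ± 0.03). Among the members, those that held the YY1 letters of the sites shown above had a median H9 log2 fold change of -0.38, and those that did not -0.37. For the ETS letters the medians were -0.38 and -0.37, so neither set of letters separated the members in H9. In HEK293T the medians were 0.08 and 0.04 for the YY1 letters and 0.10 and 0.02 for the ETS letters.

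Genes of the cytosolic ribosome and of respiratory complex I were set beside the members. Of 77 cytosolic ribosomal protein genes, 74 fell and none rose in H9, with a median of -0.58. Of 37 complex I subunit genes 32 fell and 3 rose, with a median of -0.49. Among all genes tested 34.3% fell and 37.0% rose in H9. With the GC and length trend removed 54 and 19 were lower, with medians of -0.24 and -0.17, against 40 and -0.12 for the mitochondrial ribosomal proteins. Among all genes 26.1% were then lower. In HEK293T the cytosolic genes had 25 risers and 4 fallers and complex I had 15 and 8, beside 14.1% and 14.7% of all genes. The H9 decrease was thus also seen in these other sets, and no test was made of a difference between the sets. Between the control libraries 45 cytosolic ribosomal protein genes were higher and 19 lower in H9 (median 0.15), where the mitochondrial set had 15 higher and 52 lower. Among all genes 42.3% were higher and 41.2% lower. Under upper-quartile scaling the cytosolic counts were 32 and 29, with a median of -0.01.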

How the data were processed

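PolyA RNA libraries were made with a stranded mRNA kit, per the labels' protocols. The submitters' processing notes name cutadapt, STAR 2.5.2b and the build hg19; the counting tool, the annotation and the strand setting are not given there. The deposited files hold whole-number counts for 19305 RefSeq accessions and 5 special counters, with no normalization by the authors. RefSeq tables named 18888 accessions, GENCODE 225, and 192 stayed unnamed (at most 0.022% of counts). Special counters were left out of library sizes; 15.0% to 20.8% of reads fell outside annotated features and 4.11% to 4.54% were not unique, so genes with near-identical pseudogenes may be undercounted, which applies to many ribosomal protein genes.

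Counts were fitted with edgeR 4.0.16 (R 4.3.3; TMM scaling, low-count filter, robust quasi-likelihood, 4 group means over 8 libraries), with Benjamini-Hochberg adjustment over 14559 genes; CPM values are TMM-scaled. Alternatives used DESeq2 1.42.0, limma 3.58.1, other scalings, filters, samples and a replicate block, and spline trends on GC content and length with 5 degrees of freedom. The scripts were tested on simulated data. Transcript length and GC content came from the matched models, and sequences from RefSeq on GRCh38.p14, a later build than that of the counts. Members and lists were chosen with earlier results of these data known. Named genes were the 6 called members that rose most and the 6 that fell most in each knockdown whose knockdown libraries both lay on one side of both controls, the 4 largest differences in each direction between the lines, the 3 highest and lowest per length, the MRPS18 forms, and up to 3 called genes from each pathway list; MRPL42, KGD4, DHX16 and members named by count or list were named in addition, after their values were seen.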

Additional observations from a re-analysis of the deposited data

Results flagged for a closer look

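The H9 and HEK293T responses differed by the test of the difference for 67 of the 76 genes. The difference was negative for 61 and positive for 6, where 27.0% and 31.1% of all genes were. With the GC and length trend removed the counts were 40 and 6, against 22.8% and 19.7% of all genes. Among the named genes the difference, H9 minus HEK293T on the log2 scale, was positive for MRPL1 (0.65), MRPS9 (0.62), MRPL19 (0.62) and MRPL39 (0.26). It was negative for MRPS33 (-1.07), MRPL51 (-0.94), MRPL27 (-0.86) and MRPS10 (-0.83). The lines also differ in arsenite and in the knockdown method, which cannot be told apart from the line.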

How the results depend on the processing

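In HEK293T the 7 fallers numbered 3 by DESeq2 and at an adjusted p under 0.01, 13 with the GC and length trend removed, with or without the replicate block, 12 with the trend that varied with length, and 3 to 11 when libraries were left out. Of the 31 members called there 20 kept their call by DESeq2. In H9 the 7 risers numbered 11 under upper-quartile scaling and under a filter of 5 CPM in 2 libraries, and 4 by DESeq2. Leaving out libraries gave 55 to 59 fallers in H9 and a median of -0.39 to -0.37.

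DESeq2's size factors moved the median of all genes in H9 from 0.02 to -0.13. The median of members was -0.53 with those factors and by DESeq2, -0.30 under upper-quartile scaling, -0.32 with the 5 CPM filter, -0.12 with the trend removed, with or without the block, and -0.15 with the trend that varied with length. Relative to all genes it was -0.40 under TMM, -0.41 with DESeq2's size factors and -0.40 under upper-quartile scaling. The positive differences between the lines numbered 3 by either DESeq2 setting, the 61 negative ones 40 with the trend removed, and the 15 members higher in the H9 controls 8 under upper-quartile scaling.

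Set numbers did not pair the libraries, since deviations of same-numbered libraries correlated at -0.01 in HEK293T and 0.00 in H9. With the replicate block 25 of 31 calls held in HEK293T, 66 of 66 in H9 and 64 of 67 for the difference. With the trend removed and the block, 38 members fell in H9 and 36 differences were negative.

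With the trend removed, 7 members called in H9 took the opposite call, namely MRPL23 (0.09), MRPL28 (0.23), MRPL40 (0.20), MRPL42 (-0.89), MRPL54 (0.32), MRPS34 (0.09) and MRPS35 (-0.13). With the trend that varied with length MRPL28 (0.10) and MRPL42 (-0.72) did. Both values of MRPL42 rest on its matched transcript of 15582 nt. Among the genes named by rule, the H9 values that turned under the first trend, given without and then with the block, were -0.0349 and -0.0347 for MRPL19, -0.134 in both for MRPS35, -0.140 and -0.139 for MRPS31, -0.0304 and -0.0303 for MRPL39, 0.0398 in both for MRPL52, 0.0932 and 0.0934 for MRPL23, 0.0722 and 0.0723 for AURKAIP1, -0.478 in both for PTCD3, and -0.197 and -0.198 for TFB2M. The differences of MRPL19 (-0.18 in both) and MRPL39 (-0.0453 and -0.0464) turned as well. With the trend that varied with length those values were -0.0542 for MRPL19, -0.0096 for MRPS35, -0.55 for PTCD3 and -0.0782 for TFB2M in H9, and -0.18 for the difference of MRPL19. The cause was not tested beyond the removal of the trends. The SE in H9 was widest for MRPL1 (0.11), the member with the lowest counts, and was 0.03 for MRPL37.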
